A study of Mus musculus with 15 samples.

Results

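Malat1 and 7 other long noncoding RNAs (Neat1, Meg3, Rian, Mirg, Kcnq1ot1, H19 and Gas5) were followed through 15 RNA-seq libraries of irradiated mouse bone marrow mesenchymal stem cells (BM-MSCs). The members were taken by gene symbol from a table of 54532 genes, 9443 of them of the long noncoding class, and all 8 were found. They were chosen with a result of these data in view, namely that Malat1 was lower in every gel than in IR-Con, so their differences between gels and IR-Con are described here and not tested. All BM-MSCs were bought C57BL/6 cells of passages 3 to 5, all had received 5 Gy, and all were collected after 48 h. IR-Con was cultured without a gel. The gel groups were co-cultured with RGD-modified alginate (Gel), with the same gel holding interleukin-12 (Gel/IL-12), with the gel and the clay nanoparticle Laponite (Gel/Laponite), or with the gel and Laponite loaded with interleukin-12 (Gel/Laponite@IL-12). Each group had 3 libraries, no library of unirradiated cells was analysed here, and neither the labels nor the paper say whether the 3 came from separate cultures, so each p-value below may rest on technical spread alone.

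Long noncoding RNAs act as RNA and are not translated into a known protein. Malat1 is retained in the nucleus at nuclear speckles, where splicing factors gather. Its transcript is not finished by an ordinary poly(A) tail: RNase P cuts below an A-rich tract, the tract folds with U-rich motifs into a triple helix that shields the end, and the released piece is trimmed into a small tRNA-like RNA called mascRNA. Neat1, its neighbour on the chromosome, builds the paraspeckle, and it has a short form with a poly(A) tail and a long form that ends in the same way as Malat1. Meg3, Rian and Mirg are expressed from the maternal copy of the imprinted Dlk1-Dio3 domain, where Rian carries small nucleolar RNAs (snoRNAs) and Mirg carries microRNAs. Kcnq1ot1 is transcribed from the paternal copy, antisense to Kcnq1, and silences neighbours in its domain. H19 is the maternally expressed RNA beside Igf2. Gas5 hosts snoRNAs in its introns, its spliced RNA is degraded by nonsense-mediated decay when it is translated, and it can bind the glucocorticoid receptor.

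The ends of Malat1 and Neat1 are shown because they set these RNAs apart from the other members, and because they bear on what a library made from poly(A) RNA would capture. The sequences are those of the GENCODE M21 transcripts on GRCm38, written 5′ to 3′ with T for U. In the first pair, the capitals mark the U-rich motifs and the A-rich tract of the triple helix. The Malat1 stretch is bases 6597 to 6751 of a transcript of 6983 bases and runs on past the A-rich tract through mascRNA. The Neat1 stretch is the last 95 bases of the long form of 20771 bases.
Malat1 (chr19:5795922-5796076, minus strand): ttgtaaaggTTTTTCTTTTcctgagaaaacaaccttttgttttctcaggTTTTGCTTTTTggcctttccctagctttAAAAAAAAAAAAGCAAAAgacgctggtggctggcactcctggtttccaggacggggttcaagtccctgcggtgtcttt
Neat1, long form (chr19:5824708-5824802, minus strand): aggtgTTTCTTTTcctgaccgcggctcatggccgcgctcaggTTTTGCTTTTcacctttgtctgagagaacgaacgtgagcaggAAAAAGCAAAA
A search for both parts in order (TTTTGCTTTT, then 5 to 60 bases, then AAAAAGCAAAA, on the transcript's strand, each run of T or A free to be longer) found 2 of 15671 annotated long noncoding transcripts, or 0.0128%. These belonged to 2 genes, Malat1 and Neat1. The annotated Malat1 transcript goes on for 292 bases beyond the A-rich tract, and its last 40 bases hold a poly(A) signal, as do those of the short Neat1 form of 3004 bases. The signal AATAAA is in capitals in both.
Malat1, annotated end (chr19:5795690-5795729, minus strand): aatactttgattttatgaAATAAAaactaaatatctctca
Neat1, short form (chr19:5842307-5842346, minus strand): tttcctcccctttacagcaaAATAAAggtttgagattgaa
The start of 1 of 25 annotated Gas5 transcripts is shown for its run of pyrimidines after a C (capitals). This is the kind of start that also marks RNAs of ribosomal proteins.
Gas5, first 40 bases of a transcript of 346 bases: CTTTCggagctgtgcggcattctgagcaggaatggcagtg
Whether the libraries were made from poly(A) RNA, and whether they kept the strand, is not given in the sources used here.

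Malat1 lies on chromosome 19 of GRCm38 from 5795690 to 5802672 on the minus strand, and Neat1 on the same strand from 5824708 to 5845478, with 22035 bases between their annotated ends. Kcnq1ot1, the longest member, covers chromosome 7 from 143203458 to 143296549 as 1 exon of 93092 bases that overlaps Kcnq1 on the other strand. H19 is on the same chromosome from 142575529 to 142578143. Meg3 (from 109541001 to 109571726), Rian (from 109603940 to 109661716) and Mirg (from 109729764 to 109749460) follow each other on the plus strand of chromosome 12. The annotation places 13 snoRNA genes inside Rian, 15 microRNA genes inside Mirg and 10 snoRNA genes inside Gas5, which lies on chromosome 1 from 161034422 to 161038539. Between 89.6% and 98.7% of the 50-base windows of a member's exons occurred in no other annotated gene.

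The libraries held between 14506459 and 17818982 counts (median 16126329). Levels are given as CPM, the usual unit of counts relative to the library total, here with totals scaled by TMM. All 10 listed markers of mesenchymal stem cells were measured, and their summed level was 3219 to 3681 CPM in IR-Con and 3259 to 3381 CPM in the gels. The 8 macrophage markers summed to 26.8 to 33.7 CPM in IR-Con and 58.9 to 67.5 CPM in the gels. Cd14 had a mean of 14.2 CPM in IR-Con and group means of 46.0 to 49.3 CPM in the gels, Cd68 had 7.55 and 9.39 to 10.2 CPM, and Csf1r had 4.29 and 3.39 to 3.95 CPM. Of the same list, Fcgr1 had at most 8 counts in a library, Ptprc at most 5, Itgam at most 3 and Adgre1 at most 1. Endothelial markers summed to 6.68 to 7.29 CPM in IR-Con and 5.64 to 10.1 CPM in the gels, and erythroid markers to 0.640 to 2.91 and 0.169 to 0.921 CPM. Mitochondrial genes made up 1.91 to 2.56% of an IR-Con library and 2.79 to 3.06% of a gel library, and processed pseudogenes 0.795 to 0.854% and 1.12 to 1.22%. Of the markers tested, 3 of 10 for mesenchymal stem cells rose in the gels and 4 fell, among them Thy1 (1.91) and Pdgfrb (-0.41). Over all genes tested, 27.4% rose and 27.6% fell. Of 4 macrophage markers 2 rose, Cd14 (1.75) and Cd68 (0.38), and Lyz2 fell (-1.27). Cd68 did not pass without IR-Con replicate 1 (adjusted p = 0.187) or replicate 3 (adjusted p = 0.0501). Of 4 endothelial markers 1 rose (Cdh5, 1.36). Cdh5 stayed under the minimum count of 10 in every IR-Con library (at most 0.556 CPM). It was tested only because of its gel libraries, which favours a rise. Cdh5 did not pass without IR-Con replicate 1 (0.98, adjusted p = 0.0975) or replicate 2 (1.15, adjusted p = 0.0660), and was 2.18 without replicate 3. The 1 erythroid marker tested, Alas2, fell (-1.75, and -1.11 without IR-Con replicate 1). The part of these in the differences between gels and IR-Con was not tested. The IR-Con libraries spread more than those of the gels: over 9621 genes with a mean of at least 10 CPM, the median SD of log2 CPM was 0.16 in IR-Con and 0.06 within gel groups. The fit of all 15 libraries gave each gene the same spread in every group. For genes that spread more in IR-Con, standard errors and adjusted p-values for gels against IR-Con can therefore be too small.

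The members fell into 2 abundance classes. Malat1, Neat1, Kcnq1ot1 and Gas5 had enough counts to be tested, and Meg3, Rian, Mirg and H19 were removed as too low. Per kilobase of exon, the scale on which genes are compared, the mean level in IR-Con was 682 ± 149 CPM per kb for Malat1 (SD, n = 3), 34.8 ± 3.66 for Neat1, 9.84 ± 0.447 for Gas5 and 0.336 ± 0.116 for Kcnq1ot1. In the 12 gel libraries it was 149 ± 50.7 CPM per kb for Malat1, 37.8 ± 1.06 for Neat1, 13.7 ± 1.58 for Gas5 and 0.240 ± 0.0236 for Kcnq1ot1. The order of the 4 was therefore the same without and with a gel.

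Malat1 had 86719, 55732 and 78559 counts in the IR-Con libraries. The Gel libraries held 16981, 10276 and 27624, and those of Gel/IL-12 held 18153, 24261 and 19744. Gel/Laponite had 11046, 9934 and 15419 counts, while Gel/Laponite@IL-12 had 14770, 21250 and 12688. No gel library reached any IR-Con library, and the highest gel library, Gel replicate 3, lay at 1805 CPM against 3566 CPM in the lowest IR-Con library. Mean levels were 4765 ± 1043 CPM in IR-Con, 1162 ± 585 in Gel, 1219 ± 130 with IL-12 alone, 746 ± 210 with Laponite alone and 1039 ± 292 with both (SD, n = 3 each). The fitted difference of the mean of the gels from IR-Con was -2.22 on the log2 scale (standard error 0.25), or 4.65-fold lower. For the single gels it was -2.04 (Gel), -1.97 (with IL-12), -2.68 (with Laponite) and -2.20 (with both), and these 4 values share the same IR-Con libraries. The value for Gel was -2.49 without Gel replicate 3 and -1.74 without Gel replicate 2. In bulk RNA, less RNA per cell and fewer cells with that RNA cannot be told apart.

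**Figure D1:**
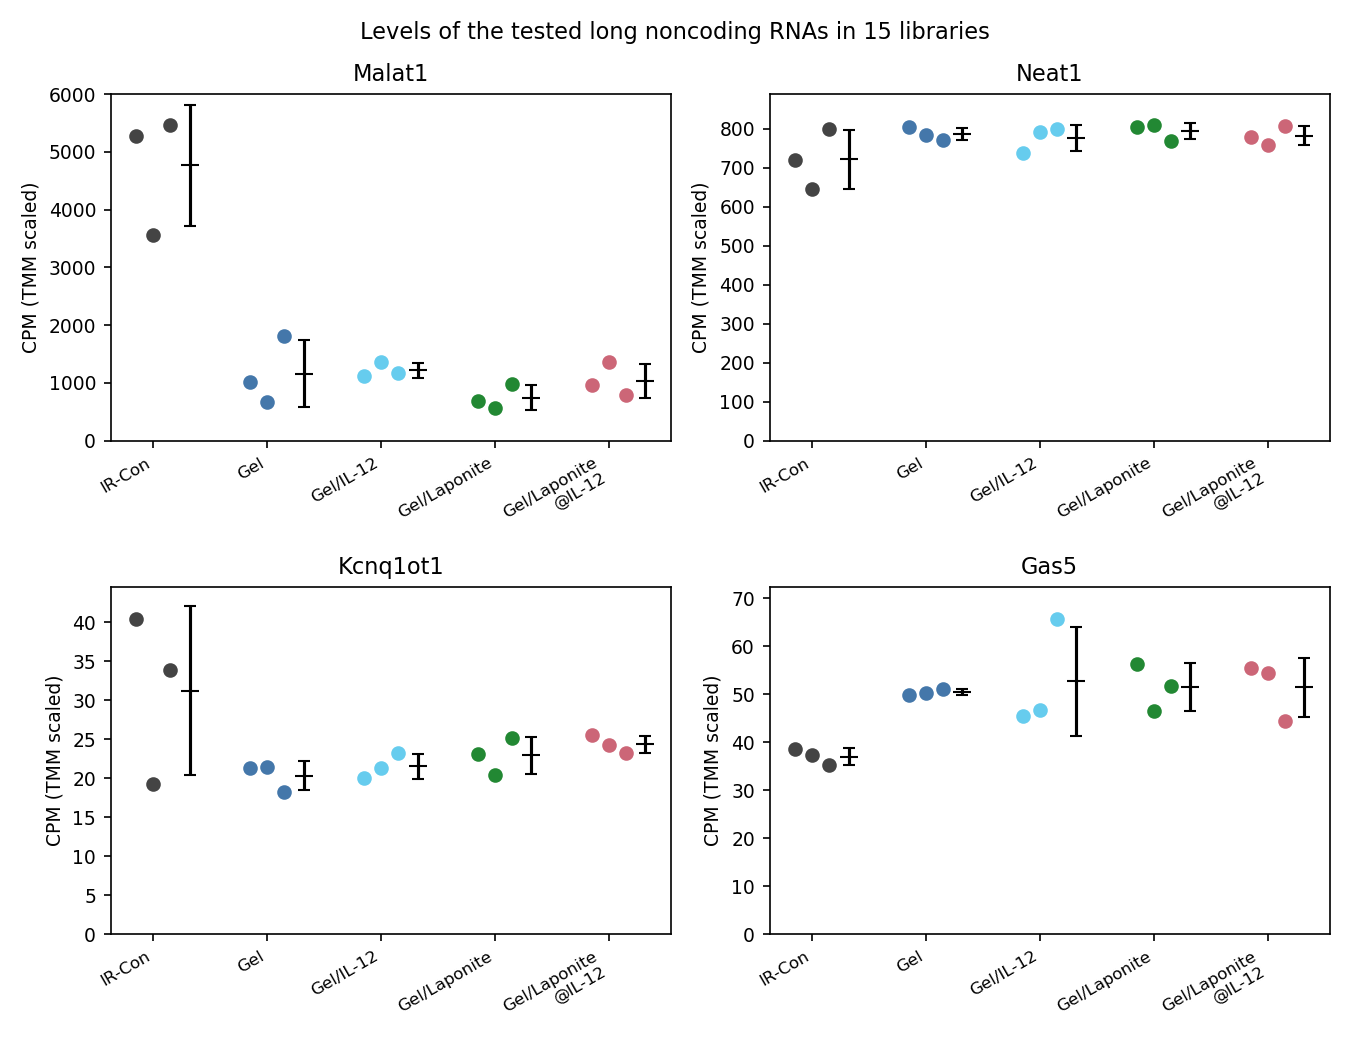
Levels of Malat1, Neat1, Kcnq1ot1 and Gas5 as TMM-scaled CPM (vertical axes from 0) in each of the 15 libraries (points), with the mean and SD of the 3 libraries of a group (black). Malat1 lay between 3566 and 5463 CPM in IR-Con and between 572 and 1805 CPM in the gels, while Neat1 stayed between 647 and 810 CPM throughout.

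By level, Malat1 ranked 8th to 13th of all genes in the IR-Con libraries and 35th to 187th in the gels. It made up 36.8 to 45.9% of all long noncoding counts in IR-Con and 8.61 to 23.3% in the gels. The share of the long noncoding class in all counts was 0.966 to 1.20% without a gel and 0.660 to 0.780% with one. With Malat1 left out, the class took 0.610 to 0.675% in IR-Con and 0.590 to 0.609% in the gels, ranges that lie close to each other but do not overlap. Of the 77 long noncoding genes with a mean of at least 10 CPM, Malat1 had the lowest fitted difference of the gels from IR-Con. The next lowest were Airn at -1.76 and Gm10076 at -1.57, and the median of the 77 was -0.14.

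Neat1 did not follow its neighbour. It had 11871, 10113 and 11490 counts in IR-Con and between 11819 and 14084 in the 12 gel libraries, and the gel range overlapped that of IR-Con after scaling. Mean levels were 722 ± 76.0 CPM in IR-Con, 787 ± 16.1 in Gel, 777 ± 32.6 with IL-12, 795 ± 21.7 with Laponite and 783 ± 24.6 with both. The fitted difference of the gels from IR-Con was 0.12 (standard error 0.05). It was 0.05 without IR-Con replicate 2 and 0.20 without IR-Con replicate 3. The SD of log2 CPM of Neat1 was 0.15 in IR-Con and 0.05 within gel groups, so its standard error can be too small. There were 5.51 to 7.31 Malat1 counts for each Neat1 count in IR-Con and 0.706 to 2.34 in the gels. In 4 gel libraries (Gel replicate 2, Gel/Laponite replicates 1 and 2, and Gel/Laponite@IL-12 replicate 3) Neat1 took the place of Malat1 as the long noncoding RNA with the highest CPM.

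Gas5 had 634, 584 and 506 counts in IR-Con and between 717 and 1103 in the gels, and all 12 gel libraries lay above all 3 IR-Con libraries. Its level was 37.0 ± 1.68 CPM in IR-Con and 50.4 ± 0.647 in Gel, 52.7 ± 11.3 with IL-12, 51.5 ± 4.97 with Laponite and 51.4 ± 6.08 with both. The fitted difference was 0.48 (standard error 0.10), or 1.39-fold. Gel/IL-12 replicate 3 stood highest at 65.7 CPM, and without it the value for Gel/IL-12 went from 0.51 to 0.32. Gas5 overlaps Zbtb37 on the other strand, which had at most 408 counts in a library, and without strand information their reads cannot be told apart.

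Kcnq1ot1 had 667, 302 and 488 counts in IR-Con and between 279 and 397 in the gels. IR-Con replicate 2, at 19.3 CPM, lay inside the gel range of 18.2 to 25.5 CPM, and the other two IR-Con libraries lay above it at 40.5 and 33.9 CPM. The fitted difference was -0.49 (standard error 0.14). It depended on single controls, since it was -0.74 without IR-Con replicate 2 and -0.25 without IR-Con replicate 1. The SD of log2 CPM of Kcnq1ot1 was 0.55 in IR-Con and 0.12 within gel groups, so its standard error can be too small. Kcnq1 itself, on the other strand, had at most 6 counts in a library.

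Of the 4 tested members, 1 (Malat1) lay below IR-Con in all gel libraries, against 15.6% of all 15590 genes tested, and 1 (Gas5) lay above it in all, against 18% of all genes. The other pair overlapped with IR-Con. edgeR's adjusted p was under 0.05 for 55% of all genes in this contrast. Since the members were chosen by this contrast, nothing is read from these counts.

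The RNAs of the Dlk1-Dio3 domain were near the limit of detection. Meg3 had 0 counts in all 3 IR-Con libraries and 0 to 2 in the gels, 14 counts over 12 libraries. The 0 of 46746893 counts in IR-Con allows a level of up to 0.0642 CPM (unscaled, over the summed libraries), and the gels had 0.0720 CPM (exact 95% Poisson interval 0.0393 to 0.121). This was 1.12 times the limit, with an interval that reached below it, so a difference was not detectable at this depth. Mirg had 0 counts in IR-Con and 0 to 8 in the gels, with counts in 10 of 12 gel libraries and 40 in all. This is 0.206 CPM (0.147 to 0.280), or 3.20 times the limit that 3 counts set over IR-Con, and the whole interval lay above that limit. The authors' length-scaled values (FPKM) for Mirg were not 0 in IR-Con replicates 1 and 2 (0.00137 and 0.0111). In the gels they ran from 0 to 0.107. Rian had 1 count in IR-Con and 18 in the gels, a ratio of 4.33 with a counting interval of 0.683 to 180. These limits and intervals cover counting error only.

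Within the gels, Meg3 and Rian had 5 and 8 counts in Gel and 5 and 7 with Laponite alone, against 2 and 2 with IL-12 alone and 2 and 1 with both. Mirg had 7 counts in Gel, 10 with Laponite alone, 14 with IL-12 alone and 9 with both. These counts are too few for a test. H19 was also low but present in every library, with 2, 12 and 5 counts in IR-Con and 2 to 12 in the gels. Over summed libraries its level was 0.406 CPM without a gel and 0.442 CPM with one, a ratio of 1.09 (0.656 to 1.89), so a difference was not detectable at this depth.

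**Figure D2:**
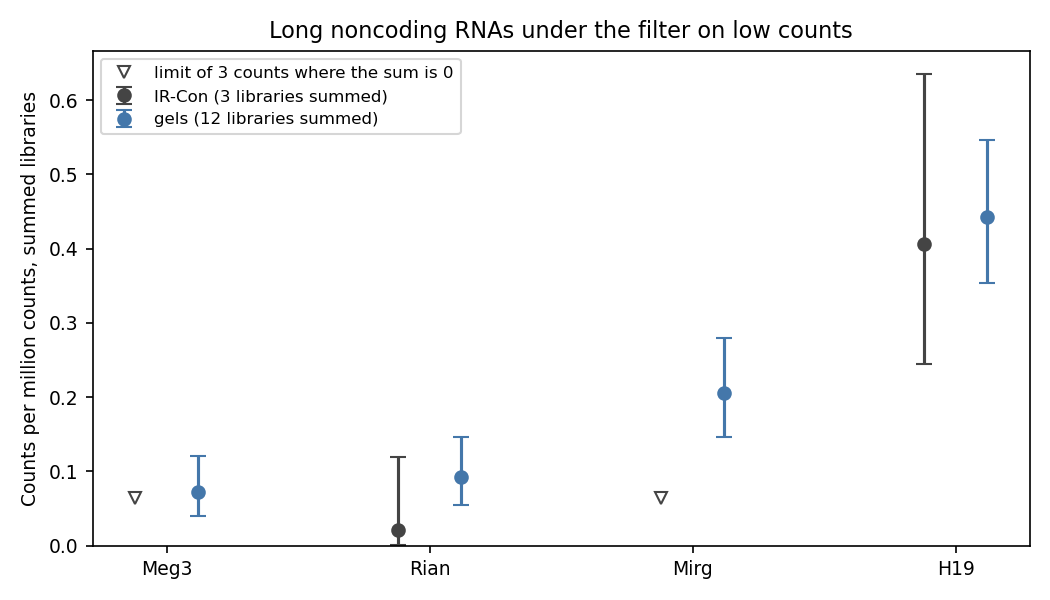
Unscaled CPM of Meg3, Rian, Mirg and H19 (vertical axis), with the 3 IR-Con libraries summed (dark) and the 12 gel libraries summed (blue). Bars are exact 95% Poisson intervals, and open triangles mark the limit that 3 counts set where the sum was 0. Mirg had 0 counts in IR-Con and 0.206 CPM in the gels, and H19 overlapped between both.

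Of the protein-coding genes beside Meg3, Rian and Mirg, Rtl1 was also low, at 0.251 CPM in IR-Con and 0.272 to 0.530 CPM as group means in the gels, while Dlk1 and Dio3 were higher. Dlk1, a membrane protein of the Notch ligand family that is expressed from the paternal copy, lay at 105 to 163 CPM without a gel and at 175 to 268 CPM with one. Dio3, the deiodinase that inactivates thyroid hormone, lay at 8.01 to 8.45 CPM without a gel and at 12.7 to 16.8 CPM with one. Both rose in the gels (Dlk1 0.77, adjusted p = 9.98e-07; Dio3 0.84, adjusted p = 1.54e-08, edgeR's quasi-likelihood test), as did the antisense RNA Dio3os (0.58, adjusted p = 0.00132). Of 7 genes in the list of Dlk1-Dio3 neighbours, 6 were tested, 3 were higher in the gels, 0 were lower and 3 did not pass. At an unadjusted p under 0.05, and by DESeq2 and limma voom, 0 were lower too. Over all 15590 genes, 27.4% were higher and 27.6% lower, and the median difference was -0.01 against 0.58 for the list. These values over all genes also stand beside the counts of each list below.

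Around Kcnq1ot1 and H19, 7 of 14 listed neighbours were tested, of which 4 were higher, 2 were lower and 1 did not pass (median 0.10). Osbpl5, an oxysterol-binding protein, fell (-0.64, adjusted p = 2.36e-11), and the mitochondrial ribosomal protein Mrpl23 rose (0.66, adjusted p = 6.80e-06). Tssc4 (0.42) and Lsp1 (0.39), an actin-binding protein, rose as well. Igf2, the growth factor gene beside H19, had 1 count over all gel libraries together and 0 in IR-Con. Phlda2 had at most 6 counts in a library.

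Among 19 imprinted genes elsewhere, 14 were tested, 2 were higher, 4 were lower and 8 did not pass (median -0.20). Igf2r, the receptor that takes up and degrades IGF2, went from 535 to 671 CPM in IR-Con to 247 to 294 CPM in the gels (-1.21, adjusted p = 1.06e-14). Airn, the noncoding RNA antisense to Igf2r, went from 18.5 to 27.1 CPM to 5.48 to 8.06 CPM (-1.76, adjusted p = 5.47e-12), and without strand information the reads of this pair cannot be told apart. The noncoding RNA Peg13 fell (-0.55, adjusted p = 1.10e-06), and the adaptor protein gene Grb10 rose (0.37, adjusted p = 5.88e-07).

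The mRNAs of proteins that work with Malat1 and Neat1 moved in both directions. So did all genes tested, of which 27.4% were higher and 27.6% lower. Of 16 nuclear speckle proteins, all tested, 5 were higher, 5 were lower and 6 did not pass (median -0.04). The speckle scaffold Son fell (-0.50, adjusted p = 3.14e-08), as did the splicing factor Srsf6 (-0.26), while the splicing factors Srsf7 (0.37) and U2af2 (0.47) rose. Without IR-Con replicate 3, 8 of the list were lower. Of 18 paraspeckle proteins, 11 were higher, 5 were lower and 2 did not pass (median 0.19). The RNA-binding proteins Hnrnpa1 (0.72, adjusted p = 1.11e-11) and Taf15 (0.49), and the cleavage factor subunit Nudt21 (0.34), rose, and Rbm12 (-0.48) fell. Without IR-Con replicate 1, 3 of the list were lower.

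Of 12 genes for the processing or binding of the Malat1 end, mostly protein subunits of RNase P, 11 were tested, 7 were higher, 1 was lower and 3 did not pass (median 0.24). The subunit genes Rpp38 (0.69, adjusted p = 7.52e-05), Pop7 (0.37) and Rpp30 (0.31) rose and Pop1 (-0.26) fell. Rpp30 did not pass without IR-Con replicate 1 (adjusted p = 0.0609). The RNA subunit of RNase P, Rpph1, had 0 counts in every library, as did the related Rmrp. RNAs without a poly(A) tail summed to 0.384 to 1.46 CPM in IR-Con and 0.994 to 2.40 CPM in the gels over 13 table rows. Of these, Rn7sk, which binds the elongation factor P-TEFb, was 0.626 CPM in IR-Con and 0.855 to 1.37 CPM as group means in the gels (0.79, adjusted p = 0.0936), and the telomerase RNA Terc was 0.231 CPM in IR-Con and 0.553 to 0.985 CPM in the gels (1.58, adjusted p = 0.0217). Terc was tested only because of its gel libraries (at most 0.486 CPM in IR-Con), which favours a rise. Rn7sk was low too, at 0.243 to 1.25 CPM in the IR-Con libraries. Terc did not pass without IR-Con replicate 2 (1.01, adjusted p = 0.118) and was 2.76 without replicate 1. Rn7sk passed with limma voom (1.06, adjusted p = 0.0343) and without IR-Con replicate 3 (1.75, adjusted p = 0.00206), and was 0.40 without replicate 1.

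The snoRNA hosts share the makeup of Gas5. Of 20 listed, 18 were in the table and 16 were tested: 10 were higher in the gels, 0 were lower (also at an unadjusted p under 0.05, and by DESeq2 and limma voom) and 6 did not pass (median 0.40). Snhg5 went from 17.7 to 20.3 CPM in IR-Con to 30.2 to 36.5 CPM in the gels (0.83, adjusted p = 6.28e-10). Snhg12 (0.87, adjusted p = 9.63e-08), Snhg1 (0.43) and Snhg20 (0.67) rose too. Snhg3, among the 10, was tested only because of its gel libraries (at most 0.304 CPM in IR-Con), which favours a rise. Of 10 nonsense-mediated decay factors, 3 were higher, 3 were lower and 4 did not pass (median -0.02). The kinase Smg1 (-0.40, adjusted p = 5.28e-05), the endonuclease Smg6 (-0.45) and the helicase Upf1 (-0.20) fell, and Smg9 (0.41) rose. Without IR-Con replicate 3, 5 of the 10 were lower, and Upf1 was not among them (adjusted p = 0.0583).

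Of 8 genes for the glucocorticoid receptor and its targets, 3 were higher, 2 were lower and 3 did not pass (median 0.12). The targets Klf9 (0.98, adjusted p = 6.56e-12) and Fkbp5 (0.73, adjusted p = 1.24e-08) rose. The receptor gene Nr3c1 fell slightly (-0.14, adjusted p = 0.00690), and the kinase Sgk1 rose by 0.12. Nr3c1 did not pass with no filter on low counts (adjusted p = 0.0830) or without IR-Con replicate 1 (adjusted p = 0.0802), nor Sgk1 without IR-Con replicate 3 (adjusted p = 0.113). Of 21 alternatives, 18 gave fewer than 2 lower genes in this list.

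Among 30 other named long noncoding RNAs, 22 were tested, 4 were higher, 8 were lower and 10 did not pass (median -0.08). Rmst, among the 4, was tested only because of its gel libraries (at most 0.512 CPM in IR-Con), which favours a rise. The microRNA host Mir22hg fell (-1.09, adjusted p = 2.67e-13), from 81.0 to 91.9 CPM to 36.8 to 43.6 CPM. Dleu2 (-0.66), another microRNA host, and Dnm3os (-0.55) fell as well, and Ptgs2os2, antisense to the prostaglandin synthase gene Ptgs2, rose (1.32, adjusted p = 1.03e-08). Over all 1223 long noncoding genes tested, 166 rose (13.6%) and 298 fell (24.4%), with a median of -0.13. Over 12838 protein-coding genes 3792 rose (29.5%) and 3668 fell (28.6%), with a median of 0.00.

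The comparisons between gels did not enter the choice of members and were tested. They ask whether interleukin-12, Laponite or both together altered the RNAs beyond the gel alone. The 12 gel libraries were fitted on their own with edgeR, 15188 genes were tested, and a gene was called at an adjusted p under 0.05. For the IL-12 effect, both groups with interleukin-12 were averaged and set against the average of both without it, the Laponite effect was formed likewise, and the interaction was the difference between the Laponite effect with and without interleukin-12.

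No member was called in any of the 9 comparisons between gels. Of all genes, 1.8% were called for Gel/IL-12 over Gel, 5.39% for Gel/Laponite over Gel, 3.09% for Gel/Laponite@IL-12 over Gel, 2.28% for Gel/Laponite over Gel/IL-12, 4.34% for Gel/Laponite@IL-12 over Gel/IL-12, 1.73% for Gel/Laponite@IL-12 over Gel/Laponite, 0.342% for the IL-12 effect, 5.52% for the Laponite effect and 3.7% for the interaction. At an unadjusted p under 0.05, 1 of the 4 tested members passed in 4 of these comparisons, and it was Kcnq1ot1 each time. DESeq2 and limma voom called 0 members too.

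From the highest mean to the lowest, Malat1 was ordered Gel/IL-12, then Gel, then Gel/Laponite@IL-12, then Gel/Laponite, and no neighbours in this order passed the test. The Laponite effect on Malat1 was -0.44 (95% interval -1.05 to 0.17, adjusted p = 0.505), the IL-12 effect was 0.27 (-0.34 to 0.89, adjusted p = 0.952) and the interaction was 0.41 (-0.81 to 1.64, adjusted p = 0.809). The largest of the 6 differences between pairs was that of Gel/Laponite from Gel/IL-12, at -0.71 (-1.58 to 0.16, adjusted p = 0.553). All 3 Gel/Laponite libraries, at 686, 572 and 979 CPM, lay below all 3 Gel/IL-12 libraries, at 1115, 1365 and 1177 CPM. The intervals still allow a Gel/Laponite level that is 0.333 times that of Gel/IL-12, so the libraries do not show that the gels were alike in Malat1.

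Neat1 was measured far more closely. The Laponite effect was 0.01 (-0.03 to 0.04, adjusted p = 0.927), the IL-12 effect was -0.02 (-0.06 to 0.01, adjusted p = 0.938), and no difference between a pair of gels was outside -0.02 to 0.03. For Gas5 the Laponite effect was -0.01 (-0.26 to 0.24, adjusted p = 0.988) and the IL-12 effect 0.03 (-0.22 to 0.28, adjusted p = 0.989).

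Kcnq1ot1 came nearest to a call. Its mean level was 20.3 ± 1.84 CPM in Gel, 21.5 ± 1.62 with IL-12, 22.9 ± 2.40 with Laponite and 24.3 ± 1.13 with both (SD, n = 3 each). All 3 libraries of Gel/Laponite@IL-12 (25.5, 24.3 and 23.2 CPM) lay above all 3 of Gel (21.3, 21.5 and 18.2 CPM). The Laponite effect was 0.17 (0.05 to 0.28, adjusted p = 0.0719), and the difference of Gel/Laponite@IL-12 from Gel was 0.25 (0.09 to 0.41, adjusted p = 0.0770). The Laponite effect passed without Gel/Laponite replicate 2 (0.21, adjusted p = 0.0214) and without Gel/IL-12 replicate 3 (0.19, adjusted p = 0.0469), and over all alternatives its adjusted p ran from 0.0214 to 0.984.

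**Figure D3:**
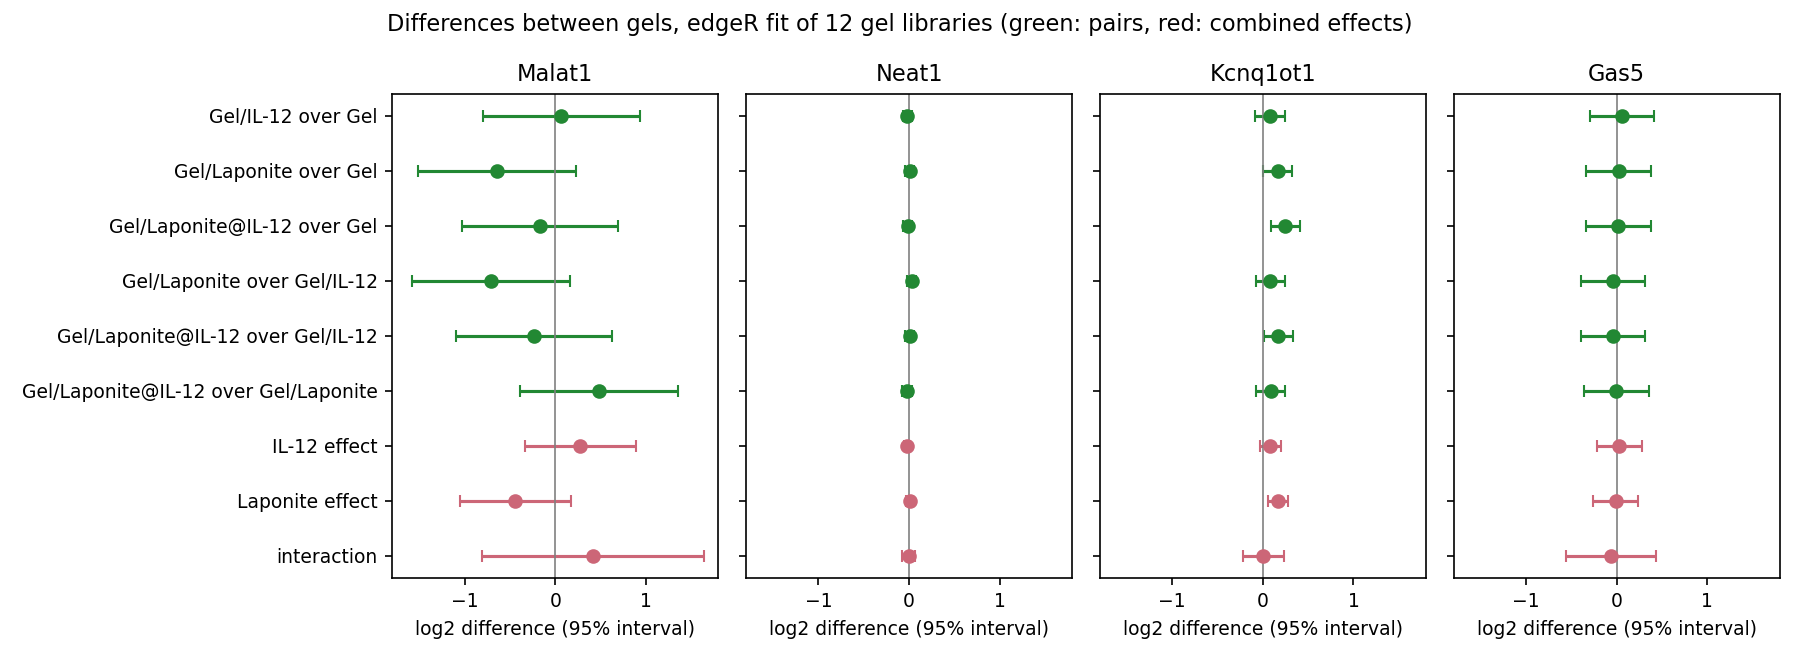
Fitted log2 differences between gels (horizontal axes) for Malat1, Neat1, Kcnq1ot1 and Gas5 with 95% intervals, from the edgeR fit of the 12 gel libraries, for the 6 pairs of gels (green) and the 3 combined effects (red). Malat1 had the widest intervals and Neat1 the narrowest, and 0 members were called at an adjusted p under 0.05.

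The width of the Malat1 intervals came from its spread between libraries of 1 group. Within gel groups the SD of its log2 CPM was 0.46, rank 17 from the top among 9621 genes with a mean of at least 10 CPM, whose median was 0.06. Of the 16 genes above it, 8 were pseudogenes, mt-Co3 and mt-Atp6 were mitochondrial, and others, such as Rps27a and Rpl17, have pseudogene copies. Gel was the most uneven group, with 662, 1019 and 1805 CPM in its 3 libraries (2.73-fold from lowest to highest), and Gel/IL-12 the most even (1.22-fold). In IR-Con the SD of Malat1 was 0.34, rank 822 among the same genes. Gas5 had 0.19 (rank 141), Kcnq1ot1 0.12 (rank 1039) and Neat1 0.05 (rank 7120) within gel groups.

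**Figure D4:**
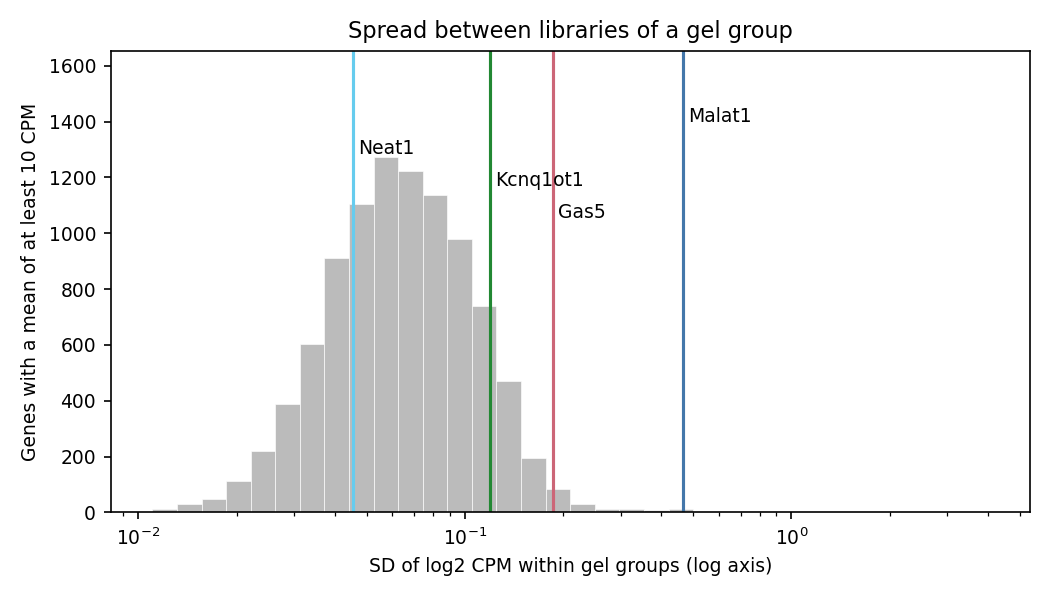
Number of genes (vertical axis) by the SD of log2 CPM between libraries of the same gel group (horizontal log axis), for 9621 genes with a mean of at least 10 CPM, with lines at the 4 tested members. Malat1, at 0.46, lay in the right tail, and Neat1, at 0.05, lay left of the median of 0.06.

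The deviations of the members from their group means were compared over the 12 gel libraries, as a description. Malat1 and Neat1 had r = -0.43, Malat1 and Gas5 r = 0.22, and Malat1 and Kcnq1ot1 r = -0.09, while Kcnq1ot1 and Gas5 had r = 0.58. With library measures that share the same counts, Malat1 had r = 0.52 both for the number of genes with a count and for the share of processed pseudogenes, 0.08 for the share of mitochondrial counts and -0.29 for the total count. The part of these measures in the Malat1 spread was not tested.

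The genes most like Malat1 were found among 9620 genes with a mean of at least 10 CPM. Over the 15 libraries, which mix the group differences with the spread, the highest Pearson r was that of Slc9a7, a sodium and proton exchanger (0.95), followed by the laminin chain Lama2 (0.94), the Polycomb protein Cbx7 (0.93), Crybg1 (0.93) and the phosphorylase kinase subunit Phka2 (0.93). The lowest were the histone methyltransferase Ezh2 (-0.94), the membrane and actin linker Ezr (-0.94) and Ergic1 (-0.93). After the group means were subtracted, over the 12 gel libraries, a different set came up: Tmco3 (0.92), the transcription factor Foxd1 (0.91), the speckle splicing factor Srsf7 (0.91), Thada (0.91) and the BCL2-family gene Bad (0.90), with Cfap43 (-0.94), Ppp2r5b (-0.93) and Dennd4b (-0.91) at the other end. These are the extremes of 9620 values over few libraries.

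Some listed genes beside the members were called between gels. Over all lists, 25 genes had 61 calls in the 9 comparisons. Over all genes, the share called was 0.342% (IL-12 effect) to 5.52% (Laponite effect) in a comparison. Whether the lists had more calls than that was not tested, and nothing is read from the count. Dlk1 had 8 of the 9 comparisons: it was at 264 CPM in Gel, 257 with IL-12, 208 with Laponite and 183 with both, with a Laponite effect of -0.42 (adjusted p = 2.19e-28) and an IL-12 effect of -0.11 (adjusted p = 0.00117). Dio3 had a Laponite effect of -0.28 (adjusted p = 0.00193). In both genes the groups with Laponite were nearer to IR-Con. Among imprinted genes elsewhere, the Laponite effect was -0.11 on Grb10 and 0.11 on Igf2r. Among the glucocorticoid targets it was 0.84 on the transcription factor Zbtb16 (adjusted p = 0.000129), 0.16 on the phosphatase Dusp1 (adjusted p = 1.35e-06) and -0.07 on Sgk1 (adjusted p = 0.0236).

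Among the noncoding hosts and RNAs, Mir155hg had a Laponite effect of 0.65 (adjusted p = 0.0310), and Dnm3os was lower in Gel/Laponite@IL-12 than in Gel/IL-12 (-0.22, adjusted p = 0.0160). The snoRNA hosts Snhg8 (-0.38, adjusted p = 0.00156) and Snhg12 (-0.32, adjusted p = 0.00592) were lower in the same comparison. Among the marker lists, Ly6a (-0.10) and Pdgfra (0.08), both found on mesenchymal stem cells, had a Laponite effect, and the lysozyme gene Lyz2 was higher in Gel/Laponite than in Gel (1.16, adjusted p = 0.0125). In a fit of all 15 libraries, where the wider spread of IR-Con enters, 6 of the 61 calls stayed past the threshold: Dlk1 and Dusp1 in 2 comparisons each, and Dio3 and Zbtb16 in the Laponite effect. The Laponite effect was not called in 9 of 19 alternatives for Mir155hg and in 7 of 19 for Sgk1, nor was Dnm3os in 5 of 20 and Lyz2 in 4 of 19.

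The authors also deposited FPKM values, and these did not track the counts equally well for all members. For Malat1 the FPKM was 453 to 636 in IR-Con and 70.7 to 223 in the gels, and FPKM per CPM differed by 1.11-fold between libraries, against a median of 1.21-fold over genes with a mean of at least 10 CPM. For Neat1 the FPKM ran from 26.8 to 168, a 6.26-fold range, while its CPM differed by 1.25-fold. FPKM per CPM of Neat1 differed by 5.00-fold, more than in 98.3% of the genes. Expressed as a length, the FPKM of Neat1 corresponded to 21161 to 24101 bases in 6 libraries and to 4817 to 12453 bases in the other 9, beside annotated transcripts of 20771 bases (long form) and 3004 bases (short form). The 6 libraries were IR-Con replicates 1 and 2, Gel/IL-12 replicates 2 and 3, Gel/Laponite replicate 3 and Gel/Laponite@IL-12 replicate 2, so they came from 4 of the 5 groups. The same conversion gave 7867 to 8729 bases for Malat1 (annotated 6983) and 115371 to 131099 for Kcnq1ot1 (annotated 93092). Such lengths thus ran above the annotated ones, and they do not tell which form of Neat1 was present. Gas5, with many annotated transcripts, also ran wide at 2.82-fold, and its highest FPKM (37.8 in IR-Con replicate 1) fell in a group where its CPM was lowest. The levels of Neat1 and Gas5 are therefore given from counts here, and the cause of the difference was not tested.

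**Figure D5:**
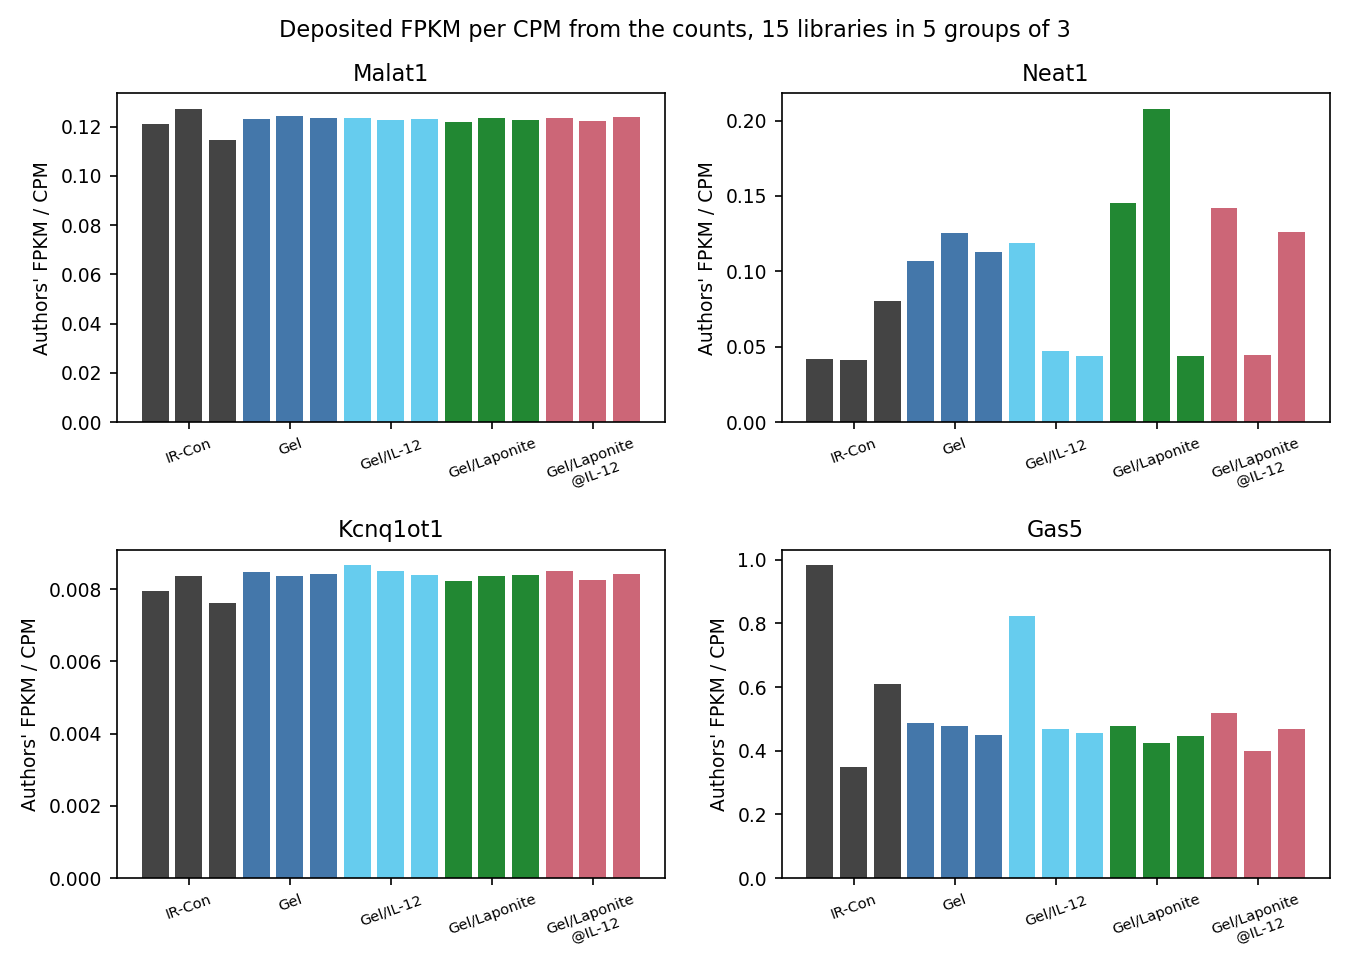
Deposited FPKM divided by TMM-scaled CPM (vertical axes from 0) for Malat1, Neat1, Kcnq1ot1 and Gas5 in the 15 libraries, 3 bars for each group. The ratio was nearly constant for Malat1 (0.115 to 0.127) and Kcnq1ot1 (0.00763 to 0.00867), while Neat1 ran from 0.0415 to 0.208 and Gas5 from 0.349 to 0.983.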

How the data were processed

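RNA was sequenced from 15 libraries of irradiated BM-MSCs, 3 for each of 5 groups taken from the labels. The authors deposited a table of raw read counts per gene and library, with no normalization, and FPKM values, which scale counts by length and depth, on genome build mm10 (GRCm38) per the labels. The aligner, counter, library type and strand setting are not given in the sources used here. The table also holds 20 columns of group means and 30 columns with fold changes and p-values of the authors' 10 comparisons, none of which was used. Genes were placed by identifier in GENCODE M21 (54409 of 54532 matched), and coordinates in the table were not used. Sequences come from the GENCODE M21 transcripts.

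Counts were filtered with filterByExpr (minimum count 10, minimum total 15), scaled by TMM and fitted with edgeR 4.0.16 (robust quasi-likelihood, 1 mean per group) in R 4.3.3. The gel effect came from all 15 libraries and the comparisons between gels from the 12 gel libraries, with Benjamini-Hochberg adjustment over all genes tested and a threshold of 0.05. Likeness and spread used log2 CPM with a prior count of 2. Libraries held 14506459 to 17818982 counts, and limits at 0 counts use 3 counts. No 2 libraries of a group agreed within counting noise (chi-square per degree of freedom 2.01 to 28.5). The pipeline was tested on simulated data that had the same dispersion for every gene and group. That test therefore does not cover the wider spread of IR-Con or of Malat1. Alternatives were DESeq2 1.42.0, limma voom (limma 3.58.1), DESeq2's size factors, no scaling, no filter, a replicate block, other sets of libraries and each library left out.

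The 8 members and all gene lists were chosen with earlier results of these data known. Named besides the members are the 5 genes most and 3 least like Malat1, up to 4 genes per list ranked first by adjusted p for the gel effect, and genes of a list called between gels. Genes named for a low or zero count (Rpph1, Rmrp, Igf2, Phlda2, Kcnq1, Zbtb37, Snhg3, Rmst) and those ranked beside Malat1 by spread or by gel effect were chosen after their values were seen.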

Additional observations from a re-analysis of the deposited data

Results flagged for a closer look

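For 11 genes of the lists the Laponite effect differed with and without IL-12 (edgeR's interaction term over 12 gel libraries, adjusted p under 0.05), and no member was among them. Each interaction is the log2 Laponite effect with IL-12 minus that without it. It was positive for 4 genes, namely 0.20 for Dusp1 (adjusted p = 0.00629), 0.15 for Pdgfra (adjusted p = 0.00144), 0.15 for Smg1 (adjusted p = 0.0301) and 0.14 for Srrm2 (adjusted p = 0.00116). It was negative for 7, namely -0.48 for Snhg8 (adjusted p = 0.00722), -0.39 for Snhg12 (adjusted p = 0.0323), -0.30 for Zfas1 (adjusted p = 0.0130), -0.15 for Srsf5 (adjusted p = 0.0113), -0.14 for Dlk1 (adjusted p = 0.0485), -0.12 for Hnrnpa1 (adjusted p = 0.0221) and -0.10 for Itgb1 (adjusted p = 0.0218). The snoRNA host Snhg8 had a Laponite effect of 0.10 without IL-12 and -0.38 with it. None of the 11 passed in the fit of all 15 libraries, where edgeR called 0 genes for the interaction. Over the alternatives as a whole, the call was lost in 16 of 19 for Dlk1, in 10 of 19 for Itgb1 and for Smg1, in 9 of 19 for Hnrnpa1, in 9 of 18 for Snhg12, in 4 of 19 for Zfas1, in 3 of 19 for Srsf5, in 2 of 19 for Dusp1, in 2 of 18 for Snhg8, and in 1 of 19 for Pdgfra and for Srrm2.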

How the results depend on the processing

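The difference of Malat1 between gels and IR-Con kept its sign in every alternative run, at -2.24 to -2.19, and at -2.39 to -2.11 with 1 library left out. All 436 such values of the 4 tested members kept their sign. For Malat1 and Gas5 the sign could hardly change, since none of their gel libraries overlapped with IR-Con. Of 702 member values between gels, 2 passed the threshold, both the Laponite effect on Kcnq1ot1 (0.19 and 0.21), so the count of members called for that effect was 0 to 1 with 1 library left out. The counts of all genes called between gels depended on the libraries in the fit. With all 15 libraries they went from 274 to 2 for Gel/IL-12 over Gel, from 819 to 51 for Gel/Laponite over Gel, from 470 to 49 for Gel/Laponite@IL-12 over Gel, from 346 to 8 for Gel/Laponite over Gel/IL-12, from 659 to 47 for Gel/Laponite@IL-12 over Gel/IL-12, from 263 to 1 for Gel/Laponite@IL-12 over Gel/Laponite, from 52 to 3 for the IL-12 effect, from 839 to 134 for the Laponite effect and from 562 to 0 for the interaction (631 genes at an unadjusted p under 0.05 in that edgeR fit; 489 called by DESeq2 and 435 by limma voom over the gel libraries). With only the 6 libraries compared they were 433 for Gel/IL-12 over Gel and 158 for Gel/Laponite@IL-12 over Gel/Laponite. With 1 library left out they ran from 135 to 296 for Gel/IL-12 over Gel, from 522 to 872 for Gel/Laponite over Gel, from 121 to 344 for Gel/Laponite@IL-12 over Gel/Laponite and from 33 to 50 for the IL-12 effect. Of 49 named calls of list genes on the gel effect, 45 to 49 stayed past the threshold in each alternative, and of 61 between gels, 43 to 60 stayed in the alternatives on all of them other than the fit of 15 libraries and DESeq2, which gave 56 an adjusted p and kept 44.

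Libraries that share a replicate number did not deviate together (mean r = -0.00 over 30 pairs), so no pairing by number was seen over the genes as a whole. A pairing limited to few genes would not show in this measure. With the replicate number as a block, Malat1 differed by -2.21 between gels and IR-Con, 0 members were called between gels, and the Laponite effect had 825 calls against 839. Of 15 libraries, 4 correlated best with one of their own number.

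Depth limits what can be said of Meg3, Rian, Mirg and H19. The spread between libraries limits what can be said of Malat1 between gels, and 3 IR-Con libraries that spread more than the gels stand behind each comparison with IR-Con.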
